A study of Arabidopsis thaliana with 9 samples.

Results

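Newly made RNA and the RNA present in the nucleus were set side by side, gene by gene, in leaves of the Arabidopsis thaliana line labelled nrpd1-3, a mutant of the largest subunit of RNA polymerase IV (Pol IV). The genes described are the nuclear genes, on chromosomes 1 to 5, with at least 20 counts in the nascent library, the steady-state library or both. They number 15218 of the 32399 nuclear genes counted. Each of the 15218 passed through the nascent library, and 2272 of them also had at least 20 counts in the steady-state library. A further 11116 had fewer than 20 but at least 1 steady-state count, and 1830 had none.

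Nuclear run-on (NRO) measures RNA polymerases at work: nuclei are isolated, transcripts already begun are extended with biotin-UTP, and the labelled RNA is captured on streptavidin beads. The other library, called RNA here, holds the RNA present in the nucleus, which depends on how fast a transcript is made and on how fast it is processed, exported or degraded. The labels describe bead capture for the RNA samples as well, so that reading is an assumption on which every ratio of NRO to RNA depends. Pol IV is a plant-specific relative of Pol II that starts the small RNA branch of RNA-directed DNA methylation, and Pol V, whose largest subunit is mutated in the line labelled nrpe1-11, acts in a later step of the same pathway. The study's stated interest is what these polymerases do to the termination of Pol II transcripts, which counts summed over whole genes cannot show.

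The labels name leaf as the tissue and give an age of 3 weeks, a temperature of 22 °C and days of 16 h light and 8 h dark for all plants. The groups used here are NRO and RNA of nrpd1-3, with the same assays in Col-0, the wild-type accession without either mutation, and in nrpe1-11. Each group is 1 library, and how many plants went into a library is not given in the labels. Ratios within a genotype therefore have no replicate check, and their intervals cover counting error only.

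The NRO library of nrpd1-3 held 8185846 gene counts and its RNA library 386011, the extremes of the 6 libraries. The nuclear ribosomal RNA loci, 4 in number, took 6.68% of the NRO counts and 38.4% of the RNA counts and were left out of library sizes, which then stood at 7639077 and 237656. The 20-count minimum corresponds to 3.14 CPM (counts divided by the scaled library size) in NRO and 70.2 CPM in RNA after scaling, so a transcript had to be far more abundant in RNA to be counted as well. The leaf label was checked against marker genes. Mesophyll markers were abundant, with 17589 NRO and 897 RNA counts of the light-harvesting gene LHCB1.3, and the root markers RHD6 and EXPA7, the floral organ genes AG and AP3 and the seed storage gene CRA1 were at 0 counts in both libraries. The third root marker, CASP1, had 1 NRO count and 0 RNA counts. In bulk leaf material, fewer cells of a type and less RNA per cell cannot be told apart.

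The genes of the pathway itself came first. NRPD1 (AT1G63020), the gene mutated in nrpd1-3, had 94 counts in NRO and 8 in RNA of nrpd1-3, against 9 and 0 in Col-0 and 19 and 3 in nrpe1-11. The mutant thus had the most NRPD1 raw counts of the 3 genotypes in both assays. A count over the whole gene does not show where its reads lie, so it does not check the label. The NRO to RNA ratio of NRPD1 in nrpd1-3 was 0.525, with a 95% counting interval of 0.256 to 1.25 that includes 1. NRPE1, the largest subunit of Pol V, had 81 NRO and 6 RNA counts. SDC, an F-box gene silenced by DNA methylation in wild-type leaves, had 69 and 2 counts in nrpd1-3, 78 and 1 in nrpe1-11, and 0 and 0 in Col-0.

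A gene was called higher or lower in NRO by a rule of size. The log2 ratio of the CPM levels, fitted with a prior count of 2, had to be at least 1 in size (2-fold). In addition, the 95% exact binomial interval of the ratio could not include equal levels. By this rule 1872 genes (12.3%) were higher in NRO than in RNA and 1375 (9.04%) were lower. Of the called genes, 57.7% were higher. This split depends on how the libraries are scaled. With library totals in place of trimmed-mean scaling, 879 were higher and 2795 lower, and 23.9% of the called genes were higher, because every log2 ratio then falls by about the same amount and the median over all genes moves by -0.501. No called gene changed direction, which a shift of that size could not bring about. Because every gene entered through its NRO counts, these counts of calls are a description of genes that are transcribed enough to be measured. With trimmed-mean scaling the median log2 ratio over all 15218 genes was 0.24, and the values below are best read relative to it.

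Depth in RNA sets what can be called. Among the 2272 genes with at least 20 RNA counts, 532 (23.4%) were higher and 490 (21.6%) lower, together 45%, and the middle of their distribution lay at a log2 ratio of -0.17, with the central 90% between -1.77 and 2.21. Of the 1830 genes with 0 RNA counts, 230 were called higher, the least of them with 85 NRO counts. Their call rests on a log2 ratio fitted with a prior count of 2, and in 63 of the 230 the lower bound against the floor also reached 2-fold. In 22 of these 230 the RNA libraries of Col-0 and nrpe1-11 also had 0 counts, while 208 were counted in at least 1 of them. For genes at 0, the ratio is given as a lower bound, computed against a floor of 3 RNA counts, or 10.5 CPM. A log2 ratio printed for such a gene, or entering a median not said to use the bound, is a fitted value and no bound.

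**Figure D1:**
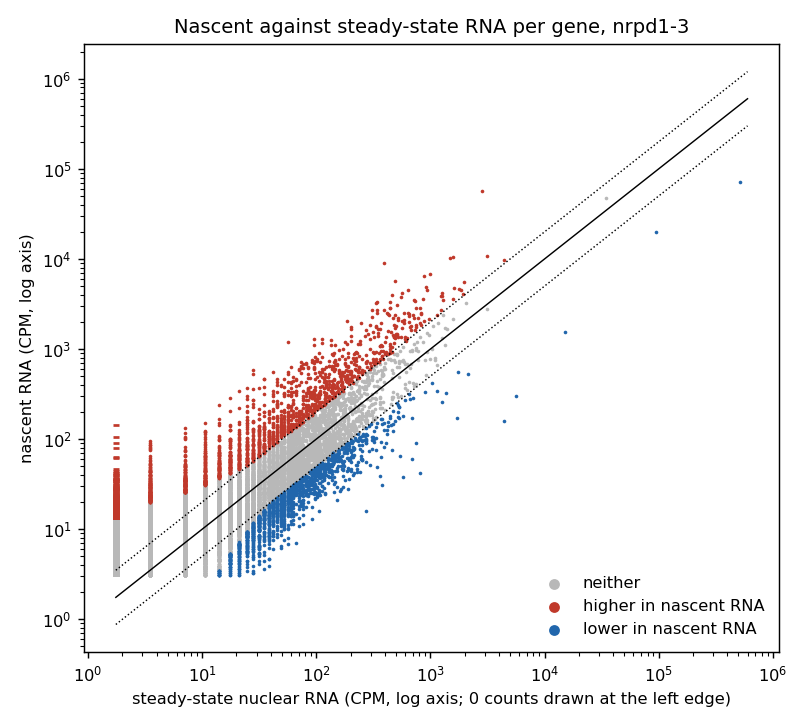
Level of each of the 15218 genes in NRO (vertical axis, CPM) against RNA (horizontal axis, CPM) of nrpd1-3, both axes logarithmic, with 1 library per assay. Red points are the 1872 genes higher in NRO, blue points the 1375 lower and grey points the rest; the solid line marks equal levels, dotted lines mark 2-fold differences, and genes with 0 RNA counts stand at the left edge.

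The plot of NRO against RNA levels shows the cloud widening toward low RNA levels, where single counts decide a ratio. It also shows a group of genes with high NRO levels well above the line and a smaller group of abundant RNAs well below it. Those extremes are described next.

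Apart from sequences beside ribosomal DNA, the genes furthest above the line included MAPKKK14, CBF2 and SRC2. MAPKKK14 (AT2G30040), a mitogen-activated protein kinase kinase kinase, had 7712 NRO and 16 RNA counts, or 1210 and 56.2 CPM. Its ratio was 21.5 (13.3 to 37.7). AT5G17350 had 3692 and 8 counts and a ratio of 20.6 (10.5 to 47.8), and AT2G23120 3412 and 8, a ratio of 19.1 (9.67 to 44.2). CBF2 (AT4G25470), a transcription factor that switches on cold-response genes, had 8193 and 27 counts and a ratio of 13.6 (9.32 to 20.6). All 4 stand on few RNA counts, and the intervals are correspondingly wide.

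Others of the highest genes had more RNA counts or none. SRC2 (AT1G09070), a C2-domain protein gene that responds to cold, had 35906 NRO and 140 RNA counts and a ratio of 11.5 (9.71 to 13.6). PHI-1 (AT1G35140), a phosphate-induced gene of the EXORDIUM family, had 13141 and 53 counts and a ratio of 11.1 (8.47 to 14.8). AT5G11070, AT3G19680 and AT3G02840 had ratios between 10.5 and 11.7 on 27 to 32 RNA counts. DIP2 (AT5G03210) and AT3G20362 were at 0 RNA counts with 906 and 674 NRO counts, so their NRO level was at least 13.5-fold higher and at least 10.0-fold higher, respectively.

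The 5 genes with the most NRO counts outside the ribosomal RNA loci were AT2G01008 and AT2G01021 beside them, AT2G16586, PEN3 and SZF1. AT2G16586 had 305910 NRO and 9857 RNA counts and a ratio of 1.39, outside the call. PEN3 (AT1G59870), an ABC transporter of the plasma membrane used in defence against fungi, had 68750 NRO and 896 RNA counts, a ratio of 3.43 (3.21 to 3.67). SZF1 (AT3G55980), a zinc finger gene that responds to salt and to bacterial elicitors, had 67702 and 445 counts, a ratio of 6.80 (6.2 to 7.48). At this depth the intervals are narrow, and both lie above 2-fold.

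Of the 10 genes furthest below the line, 8 are annotated as noncoding RNAs. U1.5 (AT1G08115), a copy of the U1 small nuclear RNA that recognises the 5′ splice site, had 1007 NRO counts and 1257 RNA counts, so it was counted more often in RNA although that library is far smaller. Its levels were 158 and 4412 CPM and its ratio 0.0358 (0.0329 to 0.0389). AT2G35750, annotated as protein-coding, had 1938 and 1602 counts and a ratio of 0.0541. AT1G15405, a noncoding RNA, held 9837 and 4272 counts, 1.80% of the RNA library size, and had a ratio of 0.103 (0.0993 to 0.107). The other genes among the 10 furthest below were the noncoding RNAs AT1G70185, AT5G06165, AT3G55485 and AT2G43375, the gene AT1G29418, and U2.7 and U2.3, with ratios between 0.0516 and 0.108.

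Among annotation classes with at least 10 measured genes, small nuclear RNAs had the lowest median. These RNAs form the core of the spliceosome and are stable nuclear transcripts. Of 13 nuclear loci 10 were measured, 7 were lower in NRO and none was higher, against 9.04% lower among all genes. Together they made up 0.0856% of the NRO library size and 1.1% of the RNA library size, and their median log2 ratio was -2.18. Among the 8 with at least 20 RNA counts, 7 were lower, against 21.6% of all genes at that depth. U4.2 (AT3G06900) had 1668 NRO and 357 RNA counts, a log2 ratio of -2.26. U2 copies ranged from -3.50 for U2.7 to 0.49 for U2.2. The 3 outside the call were U2.2, U6acat and U12, which belongs to the minor spliceosome and had 786 NRO and 23 RNA counts. Near-identical copies such as those of U2 share reads, and reads aligned to more than 1 place had been assigned to no gene, so the level of a single copy is uncertain.

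MicroRNA genes, whose primary transcripts are cut into small RNAs in the nucleus, had more loci higher than lower. Of 178 microRNA loci 27 were measured. By the rule 6 were higher, against 12.3% of all genes, and none was lower. With library totals 4 were higher, against 5.78% of all genes, and again none was lower. Most of these loci had so few RNA counts that a call of lower was hardly possible. MIR398c (AT5G14565), whose microRNA targets copper superoxide dismutase transcripts, had 2828 NRO and 30 RNA counts and a ratio of 4.21 (2.95 to 6.26), and was the only microRNA locus with 20 or more RNA counts. MIR863 had 319 and 4 counts, and MIR156c, a source of the microRNA that holds back the transition to the adult phase, 188 and 1. MIR166a, MIR163 and MIR408 were at 0 RNA counts, with lower bounds of the ratio of 2.40, 2.06 and 1.56. In all, 13 of the 27 loci had 0 RNA counts, and with these set at their lower bound the median log2 ratio of the class was 0.198, against -0.0624 for all genes treated in the same way. All 10 transfer RNA genes measured had 0 RNA counts and none was called.

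**Figure D2:**
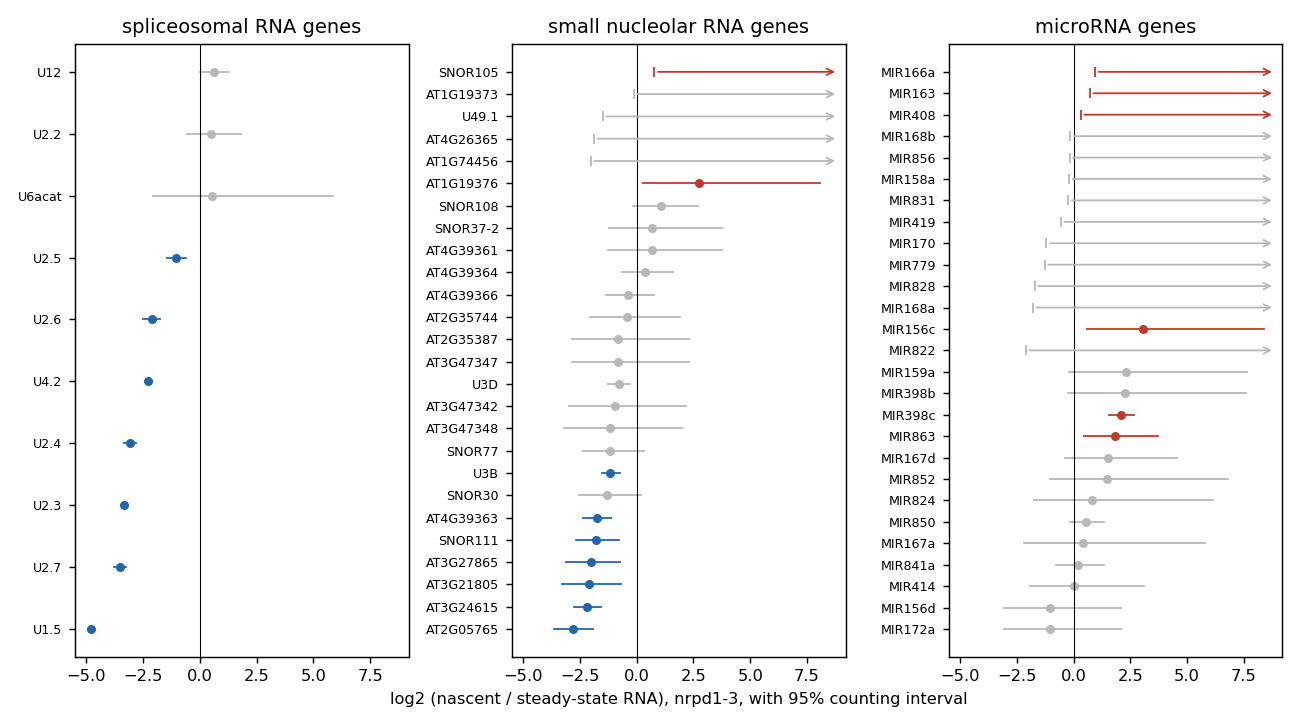
Log2 ratio of NRO to RNA in nrpd1-3 (horizontal axis) for each small nuclear RNA, small nucleolar RNA and microRNA locus with at least 20 counts, with 95% counting intervals from 1 library per assay. Red marks loci called higher, blue lower and grey neither, and loci with 0 RNA counts are arrows pointing right from the lower limit of their interval; 7 of 10 small nuclear RNAs lie below -1, and no microRNA locus is called lower.

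Small nucleolar RNAs, which guide the modification and cleavage of ribosomal RNA, were mixed: of 26 measured, 7 were lower (26.9%) and 2 higher (7.69%), against 9.04% and 12.3% of all genes. U3B (AT5G53902), needed for the first cleavages of the ribosomal precursor, had 603 NRO and 60 RNA counts and a log2 ratio of -1.15. In nrpe1-11 the log2 ratio of U3B was -1.06, but in Col-0 it was 1.82, on 1332 and 67 counts. Its relative U3D stood at -0.79 in nrpd1-3, -1.26 in nrpe1-11 and 1.56 in Col-0. The loci AT3G24615 and AT4G39363 were lower, with 153 and 31 and with 179 and 27 counts. Of long noncoding RNAs 8 were higher (6.61%) and 15 lower (12.4%) of 121, against 12.3% and 9.04% of all genes. Pseudogenes had 12 higher (7.64%) and 17 lower (10.8%) of 157, and other noncoding RNAs 3 higher (5.17%) and 11 lower (19%) of 58. With library totals these classes had, in the same order, 4, 4 and 1 higher and 20, 28 and 12 lower. The shares of all genes were then 5.78% higher and 18.4% lower.

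Sequences at the ribosomal DNA lay far from equality on both sides. The annotated locus AT3G41768 held 452297 NRO and 146481 RNA counts, or 5.53% and 37.9% of all gene counts, and a log2 ratio of -2.86. The other annotated ribosomal RNA loci AT2G01010, AT2G01020 and AT3G41979 had log2 ratios of 0.56, 1.28 and 1.16, the first outside the call. Their neighbour AT2G01008 had 366458 NRO and 814 RNA counts, a ratio of 20.1 (18.8 to 21.6), and AT3G41761 had 56744 and 112, a ratio of 22.6 (18.8 to 27.5). AT2G01021 went the opposite way, with 126061 and 27099 counts and a ratio of 0.208. Neighbouring annotations at the ribosomal DNA thus differed by more than their counting error, in opposite directions. These are repeated sequences, and how the multiply aligned reads would divide among them was not tested.

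Gene lists for leaf processes were then read one by one. The lists were chosen with earlier results of these data known, so their shares are a description and not an independent test. The list of early response genes holds 36 genes that are known for fast and brief induction by touch, wounding, cold and jasmonate. All 36 were measured, and 33 (91.7%) were higher in NRO, against 12.3% of all genes, and none was lower. Their median log2 ratio was 2.38, or 2.34 with CML42 at its lower bound, against 0.24 for all genes. With library totals 28 were higher and none lower. Together these genes made up 5.26% of the NRO library size and 1.75% of the RNA library size. With trimmed-mean scaling, all 29 with at least 20 RNA counts were higher, against 23.4% of all genes at that depth.

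Among jasmonate genes, AOS (AT5G42650), which makes the first committed intermediate of the hormone, had 11574 NRO and 95 RNA counts and a log2 ratio of 2.44. The lipoxygenase genes LOX3 and LOX4 stood at 1.63 and 1.46. MYC2, the transcription factor at the centre of the response, had 14648 and 184 counts and stood at 1.83. The hormone-degrading enzymes CYP94B3 and CYP94C1 were higher still, at 2.61 and 2.58. Of the JAZ repressors of the response, JAZ1, JAZ5, JAZ7 and JAZ9 were called, between 1.38 and 1.89, and JAZ8 and JAZ10, at 0.75 and 0.73, were not.

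Cold and touch genes included the largest gaps of the list. The tandem genes CBF1 and CBF2 had log2 ratios of 2.95 and 3.75, and CBF3, with 160 NRO and 2 RNA counts, stood at 1.75 outside the call. The zinc finger genes ZAT10 and ZAT12 had 20862 and 4768 NRO counts against 95 and 26 RNA counts, log2 ratios of 3.29 and 3.03. The calmodulin-like genes CML37 and CML38 stood at 2.65 and 3.03, TCH2 at 2.99, TCH3 at 1.73, and TCH4, a xyloglucan-modifying enzyme of the cell wall, at 2.42. CML42 had 108 NRO counts and 0 RNA counts, at least 1.61-fold higher. The ethylene response factors ERF4, ERF5, ERF6, ERF11 and ERF104 lay between 2.04 and 2.93, and the defence regulators WRKY11, WRKY18, WRKY33, WRKY40 and WRKY53 between 1.08 and 2.80.

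Genes of salicylic acid and defence leaned the same way with smaller values. Of 16 measured, 7 were higher, against 12.3% of all genes, and none was lower, with a median log2 ratio of 1.05. With library totals 1 of 16 was higher, against 5.78% of all genes. NPR3, a salicylic acid receptor, had 8737 NRO and 136 RNA counts, a log2 ratio of 1.52. EDS1, which transmits signals from intracellular immune receptors, had 766 and 14, a log2 ratio of 1.28, and the antimicrobial glucanase gene PR2 312 and 2, 2.70. PR1, ALD1 and FMO1, which rise late in systemic resistance, had at most 5 counts in either library and were not among the genes measured.

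Early auxin genes were less uniform, with 5 higher and 1 lower of 20, against 12.3% and 9.04% of all genes. With library totals 2 were higher and 1 lower, against 5.78% and 18.4%. SAUR22 had 77 NRO and 0 RNA counts and was outside the size rule, though edgeR's quasi-likelihood test over the 6 libraries called it higher (adjusted p = 0.00139). The growth genes SAUR23 and SAUR24 had 118 and 182 NRO counts and 0 RNA counts, at least 1.76-fold and 2.71-fold higher. IAA2, a repressor of auxin response, had 2226 and 39 counts and a log2 ratio of 1.35. IAA29 was lower, at -1.61, on 78 and 11 counts. The SAUR genes are near-identical tandem copies, and their counts leave out reads shared among them.

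Carbon fixation genes, the enzymes and regulators of the Calvin cycle together with CA1, were mostly lower in NRO. Of 16 measured, 12 were lower and none higher, against 9.04% lower among all genes, and the median log2 ratio was -1.42. Among the 14 with at least 20 RNA counts, 12 were lower, against 21.6% of all genes at that depth. SBPASE, a regulated enzyme of the cycle, had 186 NRO and 49 RNA counts, or 29.2 and 172 CPM, and a log2 ratio of -2.53. The aldolase gene FBA1 had 480 and 96 counts and stood at -2.15. RCA, which reactivates Rubisco, had 3555 and 499 counts and stood at -1.65, and the Rubisco small subunit gene RBCS1A 2142 and 258, at -1.43. CA1, a carbonic anhydrase, stood at -1.72. GAPA2, RBCS1B, TKL1 and CP12-1 were outside the call, between -0.84 and 0.57.

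Genes for the proteins of the photosystems and their antennae, which capture light, stood near the bulk of genes. Of 35 measured, 1 was higher and 2 were lower, against 12.3% and 9.04% of all genes, and the median log2 ratio was 0.07. Among the 33 with at least 20 RNA counts, 1 was higher and 2 lower, against 23.4% and 21.6% of all genes at that depth. With library totals 9 were lower, against 18.4% of all genes, none was higher and the median was -0.46. The antenna gene LHCB1.3 had a log2 ratio of -0.19 on its 17589 and 897 counts, LHCA4 0.06 and the oxygen-evolving complex gene PSBO1 -0.88. PSAD-2 and LHCB6 stood at 0.97 and 0.72, neither called. LHCB2.1 was called higher at 1.15, and PSBR and PSBY lower at -1.03 and -1.1. The difference between this list and the carbon fixation list was not tested, and 3 of the 4 mesophyll markers, RBCS1A, RCA and CA1, are themselves carbon fixation genes.

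Circadian clock genes, which keep daily time through mutual repression, were mixed. Of 18 measured, 7 were lower and 1 higher, against 9.04% and 12.3% of all genes. Among the 7 with at least 20 RNA counts, 6 were lower, against 21.6% of all genes at that depth, and the median log2 ratio was -1.96. The morning genes CCA1 and LHY, a pair of MYB factors, had 353 and 269 NRO counts against 77 and 26 RNA counts, log2 ratios of -2.27 and -1.1. PRR7, RVE8 and LNK2, which also act in the morning and day, stood at -1.96, -2.57 and -2.07. The evening genes TOC1 and GI had 591 and 291 NRO counts, 15 and 12 RNA counts, and log2 ratios of 0.81 and 0.11, neither called, while ELF3, of the evening complex, was lower at -1.32 on 96 and 11 counts. Nor were all morning and day genes lower: RVE4 at -0.07, RVE1 at -0.09 and PRR9 at -0.40 were not called. CHE (AT5G08330), a TCP factor that binds the CCA1 promoter, was higher at 2.33. The hour of harvest is not given in the labels.

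In the remaining lists between 0 and 5 genes were called, where the shares over all genes were 12.3% higher and 9.04% lower, or 5.78% and 18.4% with library totals. Ribosomal protein genes had 1 higher and none lower of 21, with a median of 0.50 that became -0.01 with library totals, and chaperone genes 1 higher and none lower of 11. The DNA methylation list holds genes of the RNA-directed pathway together with MET1, CMT3, DDM1, ROS1 and SDC. Of its 26 genes 16 were measured and none was called. AGO4, which carries the small RNAs, stood at -0.997, and the Pol IV partner RDR2 had 27 NRO and 0 RNA counts. With library totals 3 of the 16 were lower, and 1 was lower with a prior count of 0.5 or with the scaling of DESeq2. At least 20 RNA counts were reached by 1 gene of this list, by 2 chaperone genes and by no ribosomal protein gene. At such depth a gene left uncalled is not shown to have equal levels. Genes of Pol II and of 3′ end formation had 1 higher and 4 lower of 21, with a median of -0.64, and with library totals none was higher and 9 were lower. The largest subunit gene of Pol II, NRPB1, stood at 0.06. FCA, XRN3, PAPS4 and PCFS4, which act in polyadenylation and transcript termination, were lower, between -1.59 and -1.09. PAPS1, a nuclear poly(A) polymerase, was higher at 1.15, on 1890 NRO and 38 RNA counts, with log2 ratios of -0.23 in Col-0 and 0.64 in nrpe1-11.

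To ask whether these gaps between assays recur, the same assays were read in the other genotypes, which share no library with nrpd1-3. The rule gave 779 higher (9.16%) and 750 lower (8.82%) of 8502 genes in Col-0, and 1829 higher (11.9%) and 1329 lower (8.66%) of 15350 in nrpe1-11. Of the 1872 genes higher in nrpd1-3, 559 were also called higher in Col-0, which is 29.9% of the nrpd1-3 list and 71.8% of the Col-0 list. In nrpe1-11 the shared genes numbered 1231, or 65.8% and 67.3% of the lists. Of the 1375 lower genes, 384 were shared with Col-0, or 27.9% and 51.2%, and 638 with nrpe1-11, or 46.4% and 48.0%. Not all could be shared: of the higher genes 1717 were measured in Col-0 and 1870 in nrpe1-11, and of the lower genes 953 and 1352. In all 3 genotypes 486 genes were higher and 274 lower, and 10 genes called in nrpd1-3 were called in the opposite direction in another genotype. Across 2266 genes the log2 ratios of nrpd1-3 correlated with those of Col-0 (Pearson 0.843, Spearman 0.821) and of nrpe1-11 (0.934 and 0.924). These are descriptions across genes, which share base composition, length and library protocol and are not independent replicates.

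The spread of ratios was narrower in Col-0. Over those 2266 genes the SD of the log2 ratio was 0.877 in Col-0, 1.25 in nrpd1-3 and 1.3 in nrpe1-11. The Col-0 NRO library also differed in other ways: it held 2687149 gene counts, of which 30.3% were ribosomal, against 6.68% in nrpd1-3 and 6.66% in nrpe1-11, and 25.8% of its unique reads lay in no gene, against 18.6% in both mutants. With 1 library per group, genotype and library cannot be told apart.

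In 3 lists the genes with at least 20 RNA counts in nrpd1-3 were compared across genotypes. For the 29 early response genes that qualified, the median log2 ratio was 1.2 in Col-0, 2.35 in nrpd1-3 and 2.42 in nrpe1-11, and all 29 were above their Col-0 value. Of these genes 8 were above and 21 below their nrpe1-11 value. CBF2 stood at 2.39 in Col-0, 3.75 in nrpd1-3 and 3.67 in nrpe1-11, and WRKY33 at 0.05, 1.08 and 1.63. The 14 carbon fixation genes had medians of -0.936, -1.51 and -1.65, and 13 were below their Col-0 value. The share of all genes above or below their Col-0 value was not counted. Over the 2266 genes, the 10th and 90th percentiles were -1.23 and 0.947 in Col-0 and -1.45 and 1.67 in nrpd1-3. High and low ratios thus lay further out in nrpd1-3 over genes in general, not in these lists alone. The 7 clock genes had medians of -1.28, -1.96 and -1.53. The medians of these 3 subsets kept their sign in every genotype and lay closer to 0 in Col-0. That did not hold for every list over all its measured genes: the 18 clock genes had a median of -0.416 in Col-0 against -0.243 in nrpd1-3, and photosystem (-0.232 against 0.07), ribosomal protein (-0.297 against 0.50) and chaperone genes (-0.2 against 0.81) had medians of opposite sign in Col-0. These medians include genes with few or no RNA counts.

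**Figure D3:**
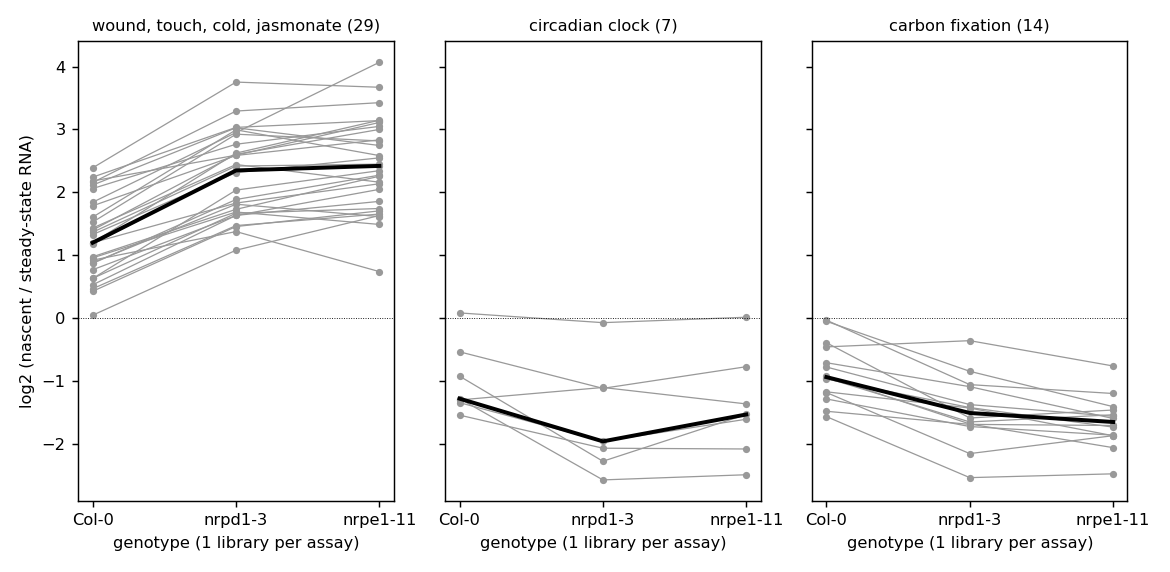
Log2 ratio of NRO to RNA (vertical axis) in Col-0, nrpd1-3 and nrpe1-11 for early response (29), clock (7) and carbon fixation (14) genes with at least 20 RNA counts in nrpd1-3, with 1 library per assay and genotype. Grey lines join the values of a gene and the black line joins the medians; early response medians are 1.2, 2.35 and 2.42.

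The 6 libraries were also tested together in edgeR (quasi-likelihood, with assay and genotype as terms), where the spread is the variation of the NRO to RNA gap between genotypes, not between plants. The prior degrees of freedom over the 6 libraries were infinite, so this spread was pooled over genes. A p-value from it does not measure how much the gap of that single gene varied between genotypes. It called 2246 genes higher in NRO (15.5% of 14530 tested) and 1566 lower (10.8%) at a Benjamini-Hochberg adjusted p under 0.05. Of the genes higher by the size rule in nrpd1-3, 1576 of 1871 tested were called higher and none lower, and of the lower genes 967 of 1355 were called lower and none higher. Because that model contains the nrpd1-3 libraries, it was also fitted to the 4 libraries of Col-0 and nrpe1-11 alone, which called 861 higher (10.1%) and 767 lower (9.03%) of 8490. Of the nrpd1-3 genes higher by size, 717 of 1716 tested were called higher there, and of the lower genes 488 of 958 were called lower, with none opposite in either direction. The counts over 6 libraries fell by more than 1.5 times without 1 library of either mutant. Leaving out NRO of nrpd1-3 gave 894 higher and 769 lower of 8495 tested, and NRO of nrpe1-11 965 and 1013 of 8512. These falls come with a smaller set of genes tested. Leaving out RNA of nrpd1-3 gave 1032 and 647 of 14529, and RNA of nrpe1-11 1157 and 805 of 14530.

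Among the named genes, MAPKKK14 had an edgeR log2 fold change of 3.85 (SE 0.36, adjusted p = 5.42e-23) over the 6 libraries and was also called in the 4 libraries without nrpd1-3 (edgeR adjusted p = 8.75e-05). U1.5 had -4.45 (SE 0.47, edgeR adjusted p = 1.23e-18; 0.00200 without nrpd1-3). SBPASE had -2.20 (SE 0.24, edgeR adjusted p = 1.13e-17; 2.86e-05 without nrpd1-3). AT2G01008, at the ribosomal DNA, was called over 6 libraries (edgeR adjusted p = 2.63e-06) but not over 4 (edgeR adjusted p = 0.128), and none of the 4 ribosomal RNA loci was called in either. Over all genes tested, 15.5% were called higher and 10.8% lower over 6 libraries, and 10.1% and 9.03% over the 4 without nrpd1-3. Of the early response genes 35 of 36 were called higher over 6 libraries, and 20 of 35 over the 4 without nrpd1-3, with none lower. Of the carbon fixation genes 13 of 16 and 7 of 16 were called lower, with none higher. Of the clock genes 6 of 18 and 5 of 12 were lower and 2 and 2 higher, the higher genes being CHE and ZTL, a blue-light receptor that directs TOC1 for degradation. Of the small nuclear RNAs 7 of 10 and 6 of 9 were lower.

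Genes at which nrpd1-3 stood apart from both other genotypes were taken from those with at least 50 counts in both nrpd1-3 libraries and at least 20 in 1 library of each other genotype. The differences were not tested, as each genotype has 1 library per assay. The log2 ratio of LACS4, an enzyme that activates fatty acids, was 0.53 in nrpd1-3, -0.58 in Col-0 and -0.39 in nrpe1-11. HSC70-1, a cytosolic chaperone, had 0.50, -0.55 and -0.35, and CIP1, a protein that interacts with the light-signalling factor COP1, 0.75, -0.71 and -0.09. None of these 3 met the size rule in nrpd1-3. On the other side, AT3G55485 had -3.57, -0.23 and -2.53, AT5G06165 -3.92, -2.72 and -3.14, and AT5G22920 -1.71, -0.15 and -0.96. The first 2 of these are noncoding RNAs already among the 10 furthest below equality in nrpd1-3.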

How the data were processed

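The authors deposited raw gene counts. The submitters' processing notes name HTSeq, Trimmomatic 0.33, TopHat2 2.1.0 and TAIR10. Strand setting, counting mode and annotation release are not given in the sources used here. Overlapping and antisense genes can therefore not be told apart. Reads with more than 1 alignment were assigned to no gene. In the labels, bead capture is described for the RNA samples as well. The 5 summary lines and the 279 organelle genes (0 counts) were left out; in nrpd1-3, reads in no gene were 18.6% (NRO) and 29.1% (RNA) of unique reads. The 3 chromatin samples were not analysed here. Names and classes were looked up in NCBI's gene table for TAIR10.1; it matched 31912 of 32399 genes and 15197 of 15218 members.

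Log2 CPM ratios used TMM scaling (edgeR 4.0.16, R 4.3.3, limma 3.58.1), a prior count of 2 and 95% exact (Clopper-Pearson) intervals. No molecular identifiers mark single molecules, so intervals and floors of 3 counts cover counting error only. edgeR's quasi-likelihood test took assay and genotype over genes with at least 20 counts in 2 libraries, with 2 residual degrees of freedom over 6 libraries and 1 over 4. The spread was shared across genes, with a biological coefficient of variation of 0.186 and 0.231. Scripts were tested on simulated data.

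Members and lists were chosen with earlier results of these data known. Named genes were drawn, not in full, from the targets, the ribosomal RNA loci, the 10 with the highest lower bound and the 10 with the lowest upper bound of the ratio, the 8 highest with at least 20 RNA counts, the 5 most abundant per library, the 3 highest and 3 lowest of each list, up to 4 per class, and the 3 highest and 3 lowest against both other genotypes among genes with at least 50 counts in both nrpd1-3 libraries and at least 20 in 1 library of each other genotype. List, class and marker genes outside this rule were named after their values were seen. Alternatives were other scalings, filters, prior counts, depths and tools (DESeq2 1.42.0) and left-out libraries.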

Additional observations from a re-analysis of the deposited data

Results flagged for a closer look

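In 10 genes the size rule called opposite directions in nrpd1-3 and in another genotype. None of these differences was tested, since each genotype has 1 library per assay. Over the 6 libraries edgeR called none of the 10. Its assay term averages the genotypes, so opposite directions tend to cancel there and the lack of a call does not bear on them.

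In 5 of them the opposite call was in Col-0. AT1G09410 had 107 NRO and 0 RNA counts in nrpd1-3, a fitted log2 ratio of 4.86 that is no bound, and 20 and 9 in Col-0, a log2 ratio of -1.20. AT1G22750 had 141 and 1 counts and a log2 ratio of 2.47, against -1.34 in Col-0. CYP72A8 (AT3G14620), a cytochrome P450, had 1070 and 20 counts and a log2 ratio of 1.25, against -1.25 in Col-0. AT4G39900 stood at 1.35 on 234 and 4 counts, against -1.18. U3B (AT5G53902), the small nucleolar RNA described above, stood at -1.15, against 1.82 in Col-0.

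In the other 5 it was in nrpe1-11. AT1G77930 stood at 1.33 on 287 NRO and 5 RNA counts, against -1.14 in nrpe1-11. AT2G03750 stood at 1.28 on 441 and 8 counts, against -1.68. RUS2 (AT2G31190), known for root sensitivity to ultraviolet light, stood at -2.08 on 34 and 7 counts, against a fitted 4.42 on 78 and 0 counts. AT4G22990 stood at -1.21 on 114 and 12 counts, against 1.90. TGA4 (AT5G10030), a bZIP factor of defence, stood at -1.78 on 82 and 13 counts, against 1.92. Of the 10, CYP72A8 and U3B had at least 20 RNA counts in nrpd1-3.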

How the results depend on the processing

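The 2-fold rule called 1872 genes higher and 1375 lower in nrpd1-3, and no called gene reversed under any of the 10 other settings tried. That is hardly a check of direction. A reversal needs a log2 ratio to move from beyond 1 to beyond -1 or back, and the largest shift of the median was -0.578. Of the 3247 called genes, 1022 were measured with 20 counts in both libraries and 1370 with NRO thinned. Library totals gave 879 higher and 2795 lower, and leaving AT2G16586 and genes beside the ribosomal DNA out of totals too, chosen after seeing the data, 765 and 3039. Requiring 20 counts in both libraries, the same genes as 20 RNA counts, gave 561 and 437 of 2272, and thinning NRO to the RNA total 625 and 705 of 2682. The other settings kept counts within 1.5 times.

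The edgeR counts over 6 libraries (2246 higher, 1566 lower) became 1282 and 786 with DESeq2, 679 and 399 without the genotype term, and 773 and 814 of 2631 genes with all libraries thinned. Leaving out 1 library each gave 894 to 2345 higher and 647 to 1652 lower, of 8495 to 14530 genes tested. Without nrpd1-3 the counts were 861 and 767 of 8490, and without nrpe1-11 958 and 1026 of 8488. Over the 4 libraries of Col-0 and nrpe1-11, DESeq2 gave 411 higher and 206 lower, and testing all genes with a count in 2 libraries 431 lower. Apart from fewer samples, genes or reads where those were left out, the cause was not tested. Among values of single genes and lists under these settings, 2768 were counted as unchanged, 257 fell short of the threshold and 88 passed it anew. A further 15, all list medians, moved. No called gene changed sign. Uncalled genes that changed sign, and list medians that shifted little against all genes, were counted as unchanged, so their direction was not checked. The genotype term sets NRO against RNA of the same genotype. No paired analysis was possible because the labels give no replicate numbers, so that nothing beyond genotype pairs the libraries. Depth limits the RNA side: 3 counts are 10.5 CPM there and 0.471 CPM in NRO.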
